A study of Homo sapiens with 15 samples.

Results

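Cyclin-dependent kinase inhibitors hold back the kinases that drive the cell division cycle, and 8 of their genes, CDKN1A, CDKN1B, CDKN1C, CDKN2A, CDKN2B, CDKN2C, CDKN2D and CDKN3, were measured in an oral squamous carcinoma line with and without forced expression of cytoglobin. Their probes were taken from the array by the RefSeq accession printed for each probe, which gave 11 probes of 42405 non-control probes, for 8 of 19483 genes named on the array. Of these 11 probes, 9, from 7 genes, stood well enough above background to be tested. The probe of CDKN2A named by transcript NM_058197 was higher in the cytoglobin cells, with 2.05-fold the signal of the control cells. Both probes of CDKN3 were lower, and the control cells had 1.73-fold and 1.40-fold their signal. Each of these calls was lost in some alternative settings, and the groups lay largely on different slides. The other 6 probes tested, for CDKN1A, CDKN1B, CDKN1C, CDKN2C and CDKN2D, did not pass the test.

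The cells were PE/CA-PJ41, an established human oral squamous carcinoma line. Cells labelled CYGB+ carried the pCMV6-Neo vector with the human cytoglobin cDNA, so that a viral promoter drove the gene, and cells labelled NCE are given in the labels as holding the vector with no insert. The paper, however, also calls its control cells parental cells that were not transfected. The cytoglobin cells were 1 stable clone, LST421, picked under G418, so an effect of cytoglobin, a property of that clone and, if the controls were parental, the transfection and selection themselves cannot be told apart. RNA was hybridised to Agilent whole-genome arrays. The labels give Cy3 for every sample, whereas the methods give Cy5 for control RNA and Cy3 for LST421, and the labels were followed here. If the methods hold, the Cy3 values of the NCE arrays need not be NCE RNA. NCE had 3 biological replicates of 3 arrays each and CYGB+ had 3 biological replicates of 2 arrays each, 15 arrays in all. Values below are log2 normalised Cy3 intensities. The arrays of a replicate were averaged first and n is 3 replicates a group, except in some alternative settings. With slide as a block or arrays entered singly, the 15 arrays were the units, with an estimated correlation between repeats of 0.17. The p-values of those settings count arrays, not replicates, and can be too low. Settings within a slide or without a replicate hold fewer replicates.

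The inhibitors fall into families by the step they block. The INK4 proteins, p16 and p15 from CDKN2A and CDKN2B and p18 and p19 from CDKN2C and CDKN2D, bind CDK4 and CDK6 and keep D-type cyclins from activating them, which leaves the retinoblastoma protein holding E2F factors silent. CDKN2A and CDKN2B lie side by side on chromosome 9p21, a region often lost or silenced in squamous carcinoma of the head and neck, and CDKN2A also encodes ARF, which binds MDM2, from another start and reading frame. The CIP/KIP proteins, p21 from CDKN1A, p27 from CDKN1B and p57 from CDKN1C, bind a wider set of kinases. CDKN3 is unlike both: it is a phosphatase that takes the activating phosphate off CDK2 and CDK1, and its transcript is known to peak in dividing cells.

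The DNA before the starts of CDKN2A and CDKN3 is shown because these genes held the probes that passed the test and moved in opposite directions. Sequences are the 250 bases before each start in RefSeq on GRCh38.p14, read 5′ to 3′ on the strand of the gene. Capitals mark exact matches, on either strand, to an E2F site (TTTCGCGC or TTTGGCGC), the CHR element of cell cycle genes (TTTGAA), a GC box (GGGCGG) or CCAAT.
CDKN2A, outer start, chr9:21995325-21995574, minus strand: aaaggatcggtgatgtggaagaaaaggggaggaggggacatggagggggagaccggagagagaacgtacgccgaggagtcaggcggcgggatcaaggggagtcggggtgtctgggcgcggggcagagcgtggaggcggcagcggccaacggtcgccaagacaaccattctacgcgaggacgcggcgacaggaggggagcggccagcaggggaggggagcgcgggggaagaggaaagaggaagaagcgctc
CDKN2A, inner start, chr9:21974858-21975107, minus strand: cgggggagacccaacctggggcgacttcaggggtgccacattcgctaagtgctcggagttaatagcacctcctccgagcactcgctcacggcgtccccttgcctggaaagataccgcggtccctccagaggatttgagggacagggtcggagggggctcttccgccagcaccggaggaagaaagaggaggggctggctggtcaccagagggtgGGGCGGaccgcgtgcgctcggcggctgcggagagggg
CDKN3, chr14:54396757-54397006, plus strand: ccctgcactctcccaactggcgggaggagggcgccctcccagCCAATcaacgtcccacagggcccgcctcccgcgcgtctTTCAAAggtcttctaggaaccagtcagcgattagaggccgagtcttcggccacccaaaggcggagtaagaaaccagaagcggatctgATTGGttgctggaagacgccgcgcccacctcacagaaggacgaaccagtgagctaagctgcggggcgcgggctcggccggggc

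The outer start of CDKN2A is the one from which ARF is read, and the inner start is that of p16. The outer window held no match, and the inner window held 1 GC box, 37 bases before the start. The CDKN3 window held 1 CHR element and 2 CCAAT boxes. Among 35116 promoter windows of the same length, 13.3% held a CHR element, 32.0% a CCAAT box and 42.6% a GC box, while the E2F letters were in 0.439% and 0.550%. A match is a description of the letters, and RefSeq windows were found for 7 of the 8 genes, all but CDKN1C.

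The arrays differed in ways that bear on all values below. Of the 15 arrays, 4 stood apart: NCE replicate 1 array 3, NCE replicate 3 array 2, CYGB+ replicate 1 array 1 and CYGB+ replicate 3 array 2. The NCE arrays stood apart from the other repeats of their own replicate. A CYGB+ replicate had only 2 arrays, so its repeats alone cannot show which one deviates. The named arrays of CYGB+ replicates 1 and 3 had best correlations of 0.32 and 0.32 with any array, against 0.66 and 0.53 for their repeats. Leaving out arrays unlike their group can lower p-values by itself, so values without these 4 are no neutral check. After each probe was centred, repeats of 1 replicate correlated at 0.42 to 0.79 when neither stood apart and at -0.04 to 0.27 when 1 did, so each inhibitor probe tested is given with and without these 4 arrays, and the gene lists by their counts. The arrays lay on 2 slides, of which the one held 8 NCE arrays and the other 1 NCE array and all 6 CYGB+ arrays, so that slide and group can hardly be told apart. That lone NCE array is NCE replicate 1 array 3, itself 1 of the 4 that stand apart, and every value below within the slide or with slide as a block rests on it. The probe for cytoglobin itself, CYGB A_33_P3285868, read 11.85, 12.15 and 11.96 in NCE and 11.38, 12.44 and 11.97 in CYGB+, a difference of -0.05 ± 0.25 (SE) with a limma adjusted p of 0.912. It therefore did not separate the groups. Its NCE signal was high, where the near-background CDKN2B probe averaged 6.06 in NCE, although the paper describes the parent line as not expressing cytoglobin. What this NCE signal comes from was not tested, and it is not known whether the probe lies inside the transfected cDNA. The directions below rest on the labels alone. All 10 squamous epithelial markers examined, among them KRT5, KRT14 and TP63, were well above background on every array, and so were 1 of 5 fibroblast markers, COL1A2, and 1 of 3 leukocyte markers found, CD14, while PDGFRB and LUM were on none. COL1A2 was lower in CYGB+, at a difference of -1.32 with a limma adjusted p of 0.00311. The summed signal of the 5 fibroblast markers ran from 550 to 606 in NCE and from 415 to 445 in CYGB+. COL1A1 differed by 0.10 with a limma adjusted p of 0.700. DCN, LUM and PDGFRB were too near background to be tested, so the lower sum follows COL1A2. The summed signal of the leukocyte markers ran from 600.0 to 724 in NCE and from 541 to 629 in CYGB+. None of the 3 endothelial markers was well above background on every array. Of the squamous markers KRT6A alone was called, lower in CYGB+ at a difference of -0.46 with a limma adjusted p of 0.0446. The part of these differences in the results was not tested.

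**Figure D1:**
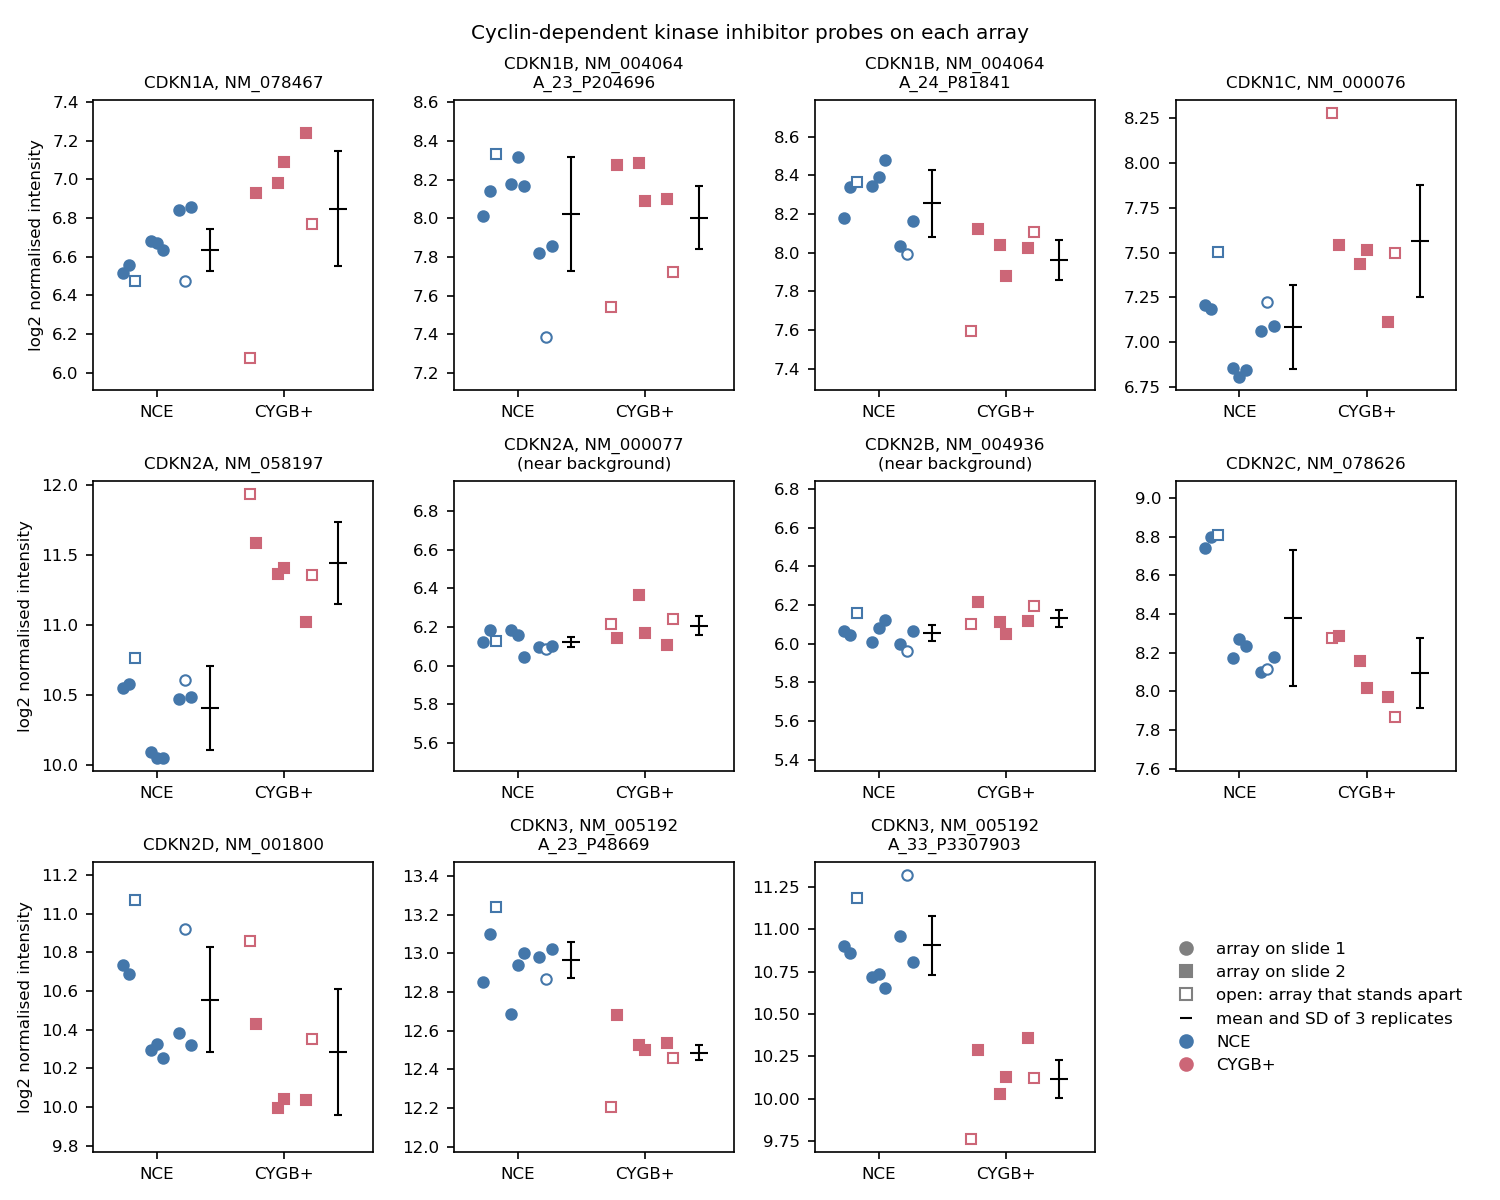
Log2 normalised intensity of the 11 inhibitor probes on each of 15 arrays, NCE in blue and CYGB+ in red, with circles for slide 1, squares for slide 2 and open symbols for the 4 arrays that stand apart. Black marks give the mean and SD of 3 replicates. The arrays of the 2 groups do not overlap for CDKN2A NM_058197 (NCE up to 10.77, CYGB+ from 11.02) or for either CDKN3 probe, and axis ranges differ between panels.

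Whether the inhibitors differed between cells with and without cytoglobin was asked with limma on 22186 probes, with Benjamini-Hochberg adjustment over all of them. Of all these probes 5.56% were called higher in CYGB+ and 5.36% lower, at an adjusted p below 0.05. Among the inhibitors 1 of 9 probes tested was called higher and 2 were called lower, and the 2 lower ones measure the same transcript of 1 gene. With a fold of at least 1.5 also asked, 3.01% of all probes were higher and 3.18% lower, against 1 inhibitor probe in each direction, for CDKN2A and CDKN3. The replicates of the 2 groups did not overlap for 4 of the 9 probes, where 33.9% of all probes tested did not overlap either, so the share without overlap is near the background. The median difference over the 9 probes was -0.27, beside 0.01 over all probes tested.

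**Figure D2:**
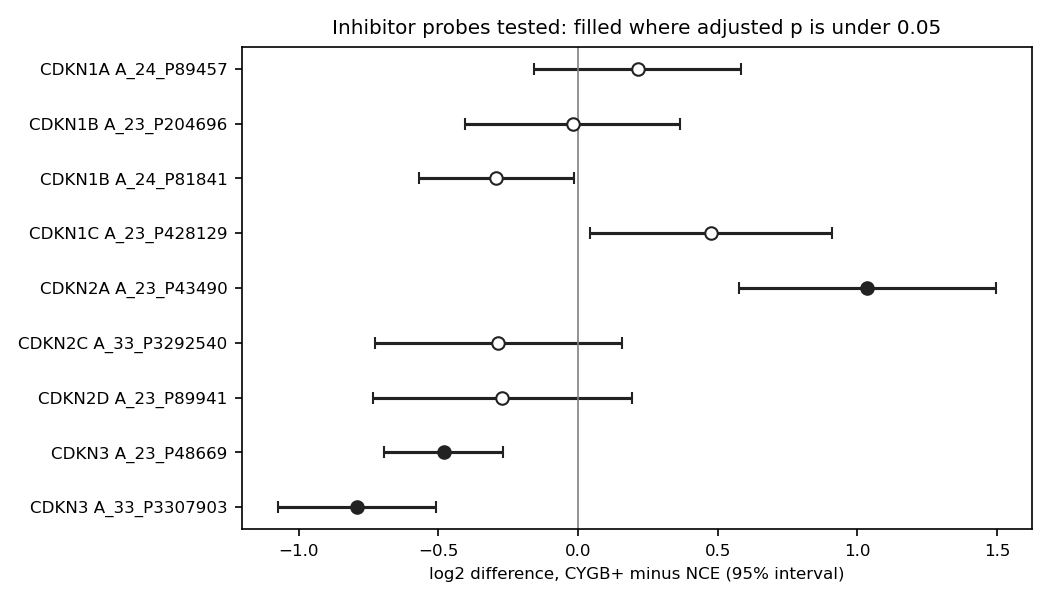
Difference in log2 normalised intensity, CYGB+ minus NCE, for the 9 inhibitor probes tested, with 95% intervals from limma. Filled points have an adjusted p below 0.05: CDKN2A at 1.04 and CDKN3 at -0.48 and -0.79, while the CDKN1A, CDKN2C, CDKN2D and the upper of the 2 CDKN1B intervals span 0.

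CDKN2A, the gene of p16 and ARF at 9p21, spans chr9:21967752-21995324 on GRCh38.p14 and had 2 probes with different accessions. The probe A_23_P43490 of NM_058197 read 10.64, 10.07 and 10.52 in NCE replicates 1 to 3 and 11.76, 11.39 and 11.19 in CYGB+ replicates 1 to 3. Every CYGB+ replicate was above every NCE replicate, and the same held for single arrays, which ran from 10.05 to 10.77 in NCE and from 11.02 to 11.93 in CYGB+. The log2 difference was 1.04 ± 0.20 (SE), with a 95% interval from 0.58 to 1.496 and a limma adjusted p of 0.0214. Without the 4 arrays that stand apart it was 0.96, with an adjusted p of 0.00755. The single NCE array that shared a slide with CYGB+, which also stands apart, read 10.77, the highest of the 9 NCE arrays. Within that slide the difference was 0.67 with an adjusted p of 0.448, and with slide as a block it was 0.73 with an adjusted p of 0.171, so the call was lost although the direction was kept, and slide and that deviant array cannot be told apart. Leaving out NCE replicate 2 gave 0.87 with an adjusted p of 0.0735, and leaving out NCE replicate 3 gave 1.09 with an adjusted p of 0.0680. Over 19 alternative settings the adjusted p ran from 9.61e-05 to 0.448.

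The other CDKN2A probe, A_33_P3411628 of NM_000077, the p16 transcript, was close to background. It read 6.15, 6.13 and 6.10 in NCE and 6.18, 6.27 and 6.18 in CYGB+. It was well above background on 1 of 9 NCE arrays and on 3 of 6 CYGB+ arrays, too few for the test, and no fold is given. The place of either probe on the transcripts was not given, and the transcripts share exons, so which of them the probe A_23_P43490 reads was not settled here. No probe on the array was named by the ARF accession, so ARF was not analysed here.

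CDKN2B, the gene of p15, lies next to CDKN2A at chr9:22002903-22009313 and was also near background. Its probe A_23_P216812 read 6.09, 6.07 and 6.01 in NCE and 6.16, 6.08 and 6.15 in CYGB+. It was well above background on none of 9 NCE arrays and on 2 of 6 CYGB+ arrays, and was not tested. An offset of 50 intensity units was added before the log, so values near 6 lie close to the lowest the scale gives.

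The other INK4 genes were read clearly and did not pass the test. CDKN2C, the gene of p18 at chr1:50960745-50974634, read 8.78, 8.23 and 8.13 in NCE and 8.28, 8.09 and 7.92 in CYGB+. NCE replicate 1 was the high sample and the groups overlapped, with a difference of -0.28 ± 0.19 (SE), a 95% interval from -0.73 to 0.16 and a limma adjusted p of 0.371. CDKN2D, the gene of p19 at chr19:10566460-10568979, read 10.83, 10.29 and 10.54 in NCE and 10.64, 10.02 and 10.19 in CYGB+. Replicate 1 was the highest in each group, and the difference was -0.27 ± 0.20 (SE), with an interval from -0.73 to 0.19 and a limma adjusted p of 0.419. These intervals leave room for a change of either sign for both genes. With slide as a block the differences were larger, -0.58 for CDKN2C and -0.72 for CDKN2D, at adjusted p of 0.239 and 0.248. They were -0.26 and -0.29 without the 4 arrays that stand apart, at adjusted p of 0.295 and 0.195.

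Among the CIP/KIP genes none passed the test. CDKN1A, the gene of p21 at chr6:36676463-36687332, was dim, and read 6.51, 6.66 and 6.72 in NCE and 6.50, 7.03 and 7.003 in CYGB+. CYGB+ replicate 1 lay below all NCE replicates and the other CYGB+ replicates above them, and the difference was 0.21 ± 0.16 (SE) with an interval from -0.16 to 0.58 and a limma adjusted p of 0.422. The low reading came from array 1 of that replicate, at 6.08, which is 1 of the 4 arrays that stand apart and the only CYGB+ array where the probe was not well above background. Without the 4 arrays the CDKN1A difference was 0.39 with an adjusted p of 0.0419 and passed the test, where 13.3% of all probes were called higher. Over the 17 alternative settings that gave CDKN1A a value its adjusted p ran from 0.0419 to 0.802.

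CDKN1B, the gene of p27 at chr12:12717368-12722369, had 2 probes of 1 accession. A_23_P204696 read 8.16, 8.22 and 7.69 in NCE and 7.91, 8.19 and 7.91 in CYGB+, overlapping groups with a difference of -0.02 ± 0.16 (SE) and a limma adjusted p of 0.956. Its sign was not stable, and without the 4 arrays that stand apart it was 0.15 with an adjusted p of 0.371, the lowest of a range up to 0.965 over 19 settings. A_24_P81841 read 8.29, 8.40 and 8.06 in NCE and 7.86, 7.96 and 8.07 in CYGB+. The highest CYGB+ replicate was just above the lowest NCE replicate, and the difference of -0.29 ± 0.12 (SE), with an interval from -0.57 to -0.01, had a limma adjusted p of 0.160. It was -0.22, with an adjusted p of 0.142, without the 4 arrays.

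CDKN1C, the gene of the imprinted inhibitor p57 at chr11:2883218-2885775, read 7.30, 6.84 and 7.13 in NCE and 7.91, 7.48 and 7.31 in CYGB+. The replicates did not overlap, by a margin that is small beside their spread, and the difference of 0.48 ± 0.18 (SE), with an interval from 0.04 to 0.91, had a limma adjusted p of 0.148. The 8 NCE arrays of the first slide read 6.81 to 7.23, whereas the NCE array that shared the CYGB+ slide, and that stands apart from its own replicate, read 7.50, next to the CYGB+ median of 7.50. Within that slide the difference was 0.06, and with slide as a block it was 0.11 with an adjusted p of 0.951, in a range from 0.0419 to 0.971 over 18 settings. The low end came from entering arrays singly, which takes arrays and not replicates as units. Without the 4 arrays that stand apart, that NCE array among them, the difference was 0.34 with a limma adjusted p of 0.111.

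CDKN3, the phosphatase gene at chr14:54397007-54420218, had 2 probes of transcript NM_005192, and both fell in CYGB+. A_33_P3307903 read 10.98, 10.70 and 11.03 in NCE and 10.02, 10.08 and 10.24 in CYGB+. All CYGB+ replicates were lower than all NCE replicates, and the difference was -0.79 ± 0.12 (SE), with a 95% interval from -1.07 to -0.51 and a limma adjusted p of 0.0112. A_23_P48669 read 13.06, 12.88 and 12.96 in NCE and 12.44, 12.51 and 12.50 in CYGB+. The groups again did not overlap, and the difference was -0.48 ± 0.09 (SE), with an interval from -0.69 to -0.27 and a limma adjusted p of 0.0215. Single arrays did not overlap for either probe, but for A_23_P48669 the lowest NCE array, at 12.69, and the highest CYGB+ array, at 12.68, almost met. That NCE array was replicate 2 array 1, and its 2 spots had a median green signal of 46287.8 before flagged spots were left out. The other NCE arrays ran from 6500.75 to 10245 by that measure. How far the flagging shaped its low normalised value was not tested.

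The CDKN3 values kept their sign on the slide that held both groups. The NCE array on the CYGB+ slide, 1 of the 4 that stand apart, read 11.19 for A_33_P3307903 and 13.24 for A_23_P48669, above all 6 CYGB+ arrays beside it, which ran from 9.76 to 10.36 and from 12.20 to 12.68. With slide as a block and single arrays as units, the differences were -1.07 and -0.74, with limma adjusted p of 0.0160 and 0.0274. Within the slide, where a lone NCE array stands for its group, they were -1.07 and -0.75 and no longer passed, with adjusted p of 0.232 and 0.252. Without the 4 arrays that stand apart they were smaller, -0.58 and -0.37, and passed with adjusted p of 0.00590 and 0.0141. The call of A_33_P3307903 was lost without NCE replicate 3, at an adjusted p of 0.0553. That of A_23_P48669 was lost without NCE replicate 1, 2 or 3 or CYGB+ replicate 3, at adjusted p of 0.0685, 0.0688, 0.0910 and 0.0556. Over all alternative settings the adjusted p ran from 0.000293 to 0.232 for A_33_P3307903 and from 0.00232 to 0.252 for A_23_P48669.

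**Figure D3:**
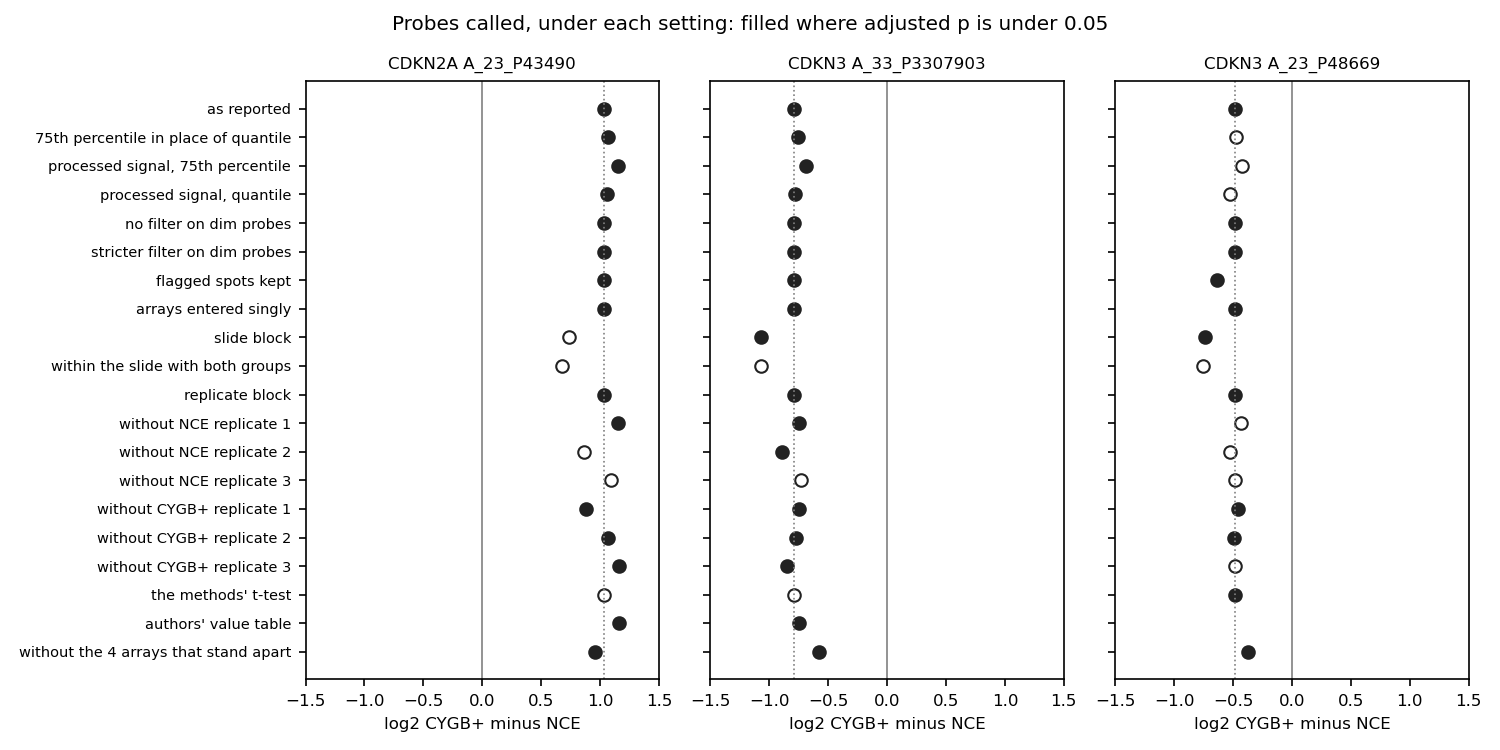
Log2 difference, CYGB+ minus NCE, of the 3 probes called, as reported and under each of 19 other settings, filled where the adjusted p is below 0.05. CDKN2A stays between 0.67 and 1.16, CDKN3 A_33_P3307903 between -1.07 and -0.58 and CDKN3 A_23_P48669 between -0.75 and -0.37, and the dotted line marks the reported value. The call of CDKN2A was lost in 5 settings, that of A_33_P3307903 in 3 and that of A_23_P48669 in 8 of the 18 that gave it a value.

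The kinases and cyclins that the inhibitors bind were followed by a list of 12 genes. Of 14 probes tested 2 (14.3%) were lower and none higher, beside 5.36% and 5.56% of all probes, with a median difference of -0.16. CDK1, the kinase of mitosis and a substrate of the CDKN3 phosphatase, read 11.18, 11.23 and 11.27 in NCE and 10.55, 10.50 and 10.83 in CYGB+, a fall by 0.60 with a limma adjusted p of 0.0204. CCNE1, the cyclin that activates CDK2 at the start of DNA synthesis, read 10.69, 10.89 and 10.97 in NCE and 9.99, 10.33 and 10.28 in CYGB+, with a difference of -0.65 and a limma adjusted p of 0.0238. The INK4 targets themselves did not pass: the difference was 0.36 for CDK4 with a limma adjusted p of 0.130 and -0.15 for CDK6 with 0.525. Nor did CCND1, a D-type cyclin that activates these kinases, at -0.25 with an adjusted p of 0.462. CDK2 differed by -0.18 with an adjusted p of 0.221.

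Downstream of the kinases, the list of 13 pocket protein and E2F genes gave 1 lower probe of 19 (5.26%), a share near the 5.36% of all probes, and none higher, with a median of -0.05. The lower one was RBL1 A_23_P28733, for the p107 pocket protein, which read 8.34, 8.65 and 8.49 in NCE and 8.00, 7.71 and 7.82 in CYGB+, with a difference of -0.65 and a limma adjusted p of 0.0201. Another RBL1 probe, A_24_P276102, differed by -0.91 but did not pass, with an adjusted p of 0.210, since NCE replicate 1 read 8.44 where the other NCE replicates read 6.80 and 6.77. It was chosen after its values were seen. RB1, the retinoblastoma gene, differed by -0.13 with an adjusted p of 0.502 and E2F1 by -0.38 with an adjusted p of 0.0828.

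The ubiquitin ligase list holds 12 genes that mark p21, p27 or p57 for breakdown, and 1 of its 15 probes (6.67%) was higher, near the 5.56% of all probes, and none lower. SKP1 A_23_P133424, an adaptor of the ligase, read 13.24, 13.51 and 13.45 in NCE and 13.90, 13.95 and 14.004 in CYGB+, a difference of 0.55 with a limma adjusted p of 0.0204. Another SKP1 probe, A_24_P566701, overlapped between groups, with 0.25 and an adjusted p of 0.346. SKP2, the subunit that recognises p27, differed by -0.10 with an adjusted p of 0.553. The probes of its cofactor CKS1B differed by -0.10 and -0.27 and did not pass. The median of the list was -0.05.

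Of the list of 9p21 neighbours and Polycomb repressors of the INK4 locus, 11 of 12 genes were found on the array. None of 15 probes tested passed in either direction, with a median of -0.06. Of all probes 5.56% were called higher and 5.36% lower, so 15 probes are too few to read this as a lack of change. MTAP, a neighbour often deleted together with CDKN2A, had 3 probes that differed by -0.15, -0.10 and -0.06. CDKN2B-AS1, the antisense transcript of the locus, and DMRTA1 read near background in both groups and were not tested.

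The list around ARF and MDM2, with stress response genes, gave 3 higher probes of 25 (12%), beside 5.56% of all probes, and none lower, beside 5.36%, with a median of 0.16. GADD45A, a stress gene whose protein binds p21, read 11.49, 12.04 and 11.77 in NCE and 12.70, 12.61 and 12.66 in CYGB+, with a difference of 0.89 and a limma adjusted p of 0.0133. NPM1 A_32_P49423, for the nucleolar protein that holds ARF, differed by 0.72 with an adjusted p of 0.0235, while the other NPM1 probes, at 0.90 and 0.41, did not pass, with adjusted p of 0.176 and 0.0919. The difference was 0.58 with an adjusted p of 0.0324 for SESN2, a stress response gene. MDM2 did not pass in any of 3 probes, at 0.20, 0.04 and 0.39.

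Of 17 transcription factors known to act on inhibitor genes, 1 of 21 probes (4.76%) was higher and 1 lower, below the 5.56% and 5.36% of all probes, with a median of 0.03. ID2 A_23_P143143, which opposes the factors that activate inhibitor genes, read 6.82, 6.47 and 6.75 in NCE and 7.98, 7.21 and 7.33 in CYGB+, a difference of 0.83 with a limma adjusted p of 0.0477, and the other ID2 probe, at 0.37, had an adjusted p of 0.0727. ETS2, a factor known to act on the p16 promoter, read 8.65, 8.31 and 8.06 in NCE and 7.51, 7.67 and 7.79 in CYGB+, a difference of -0.68 with an adjusted p of 0.0404.

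The list of 16 proliferation genes gave 3 lower probes of 22 (13.6%), beside 5.36% of all probes, and none higher, beside 5.56%, with a median of 0.01. They were AURKA, a mitotic kinase, which differed by -0.74 with a limma adjusted p of 0.0284, PCNA A_23_P28886, the sliding clamp of DNA replication, at -0.66 with 0.0246, and MCM4, a subunit of the replicative helicase, at -0.49 with 0.0229. Another PCNA probe, A_33_P3258612, overlapped between groups, at -0.55 with an adjusted p of 0.150. The probes of MKI67, the usual marker of dividing cells, differed by -0.0030, -0.16 and 0.03 and did not pass. Over the 7 lists 5 of 131 probes (3.82%) were higher and 7 (5.34%) lower, at or below the 5.56% and 5.36% of all probes. With slide as a block 1 was higher and none lower, and with the replicate number as a block 9 were higher and 7 lower. Without NCE replicate 1 the counts were 2 and 5, without NCE replicate 2 they were 2 and 0, without NCE replicate 3 none passed, and without CYGB+ replicates 1, 2 and 3 they were 5 and 11, 5 and 3, and 1 and 2. Without the 4 arrays that stand apart 16 were higher and 16 lower, where 13.3% and 12.1% of all probes were called.

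**Figure D4:**
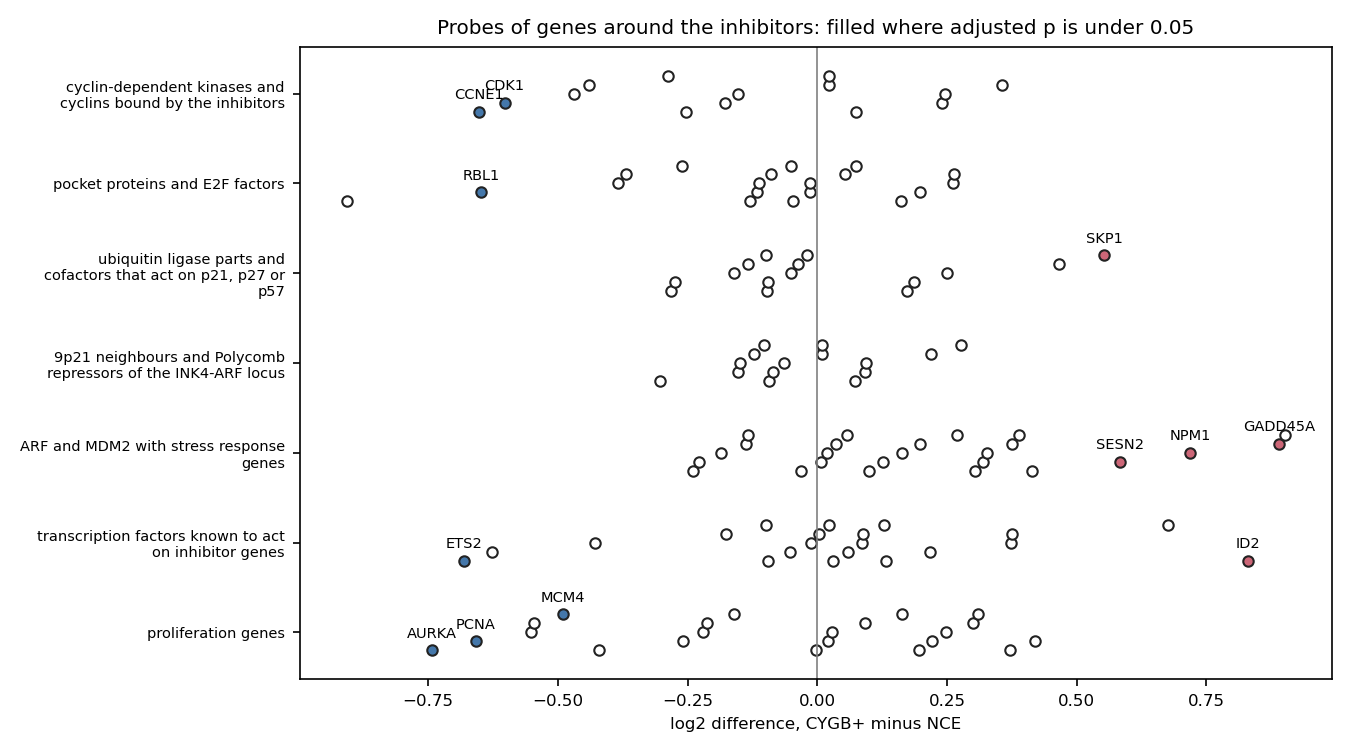
Log2 difference, CYGB+ minus NCE, of each tested probe of the 7 gene lists, 1 row a list, with called probes filled red where higher and blue where lower and named. Called probes lie between -0.74 for AURKA and 0.89 for GADD45A, and most probes of every list lie open around 0.

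The genes whose values over the 15 arrays were most like those of CDKN2A A_23_P43490, by Pearson r among tested probes with a gene name, were SCAMP1 at 0.98, IMPA2 at 0.97, KRT80 at 0.97, LYPD1 at 0.96 and BBIP1 at 0.96. Without the 4 arrays that stand apart the r values were 0.97, 0.96, 0.97, 0.96 and 0.96. All arrays share a platform and the group difference itself enters these values, so they are a description. The log2 differences of these genes, CYGB+ minus NCE, ran from 0.45 for BBIP1 to 2.39 for LYPD1, a surface protein of the LY6 family, and KRT80, an epithelial keratin, differed by 1.02.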

How the data were processed

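The members and the gene lists were chosen with earlier results of these data known. The 15 arrays were Agilent whole-genome 8x60K arrays read by the authors with Feature Extraction 10.7.3.1, and the deposited scanner files hold green and red intensity values per spot. All samples are Cy3 in the labels, so the green channel was used, although the methods give Cy5 for control RNA and Cy3 for LST421. The red channel, whose RNA the labels do not give, was not used. The probe annotation was updated through RefSeq (GRCh38.p14), which named 25422 of 42405 non-control probes.

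Green median intensity and its local background were corrected by normexp with an offset of 50 and quantile normalised over 15 arrays in limma 3.58.1 (R 4.3.3). The planned mean signal was not in these files, so the median was used. Spots flagged as outliers were removed, spots of a probe and then the arrays of a replicate were averaged on the log2 scale, and 3 against 3 replicates were tested with lmFit and eBayes. A probe was tested if well above background on more than 0.5 of the arrays of either group, which on single arrays held for 48.9% to 57.3% of probes. Calls used a Benjamini-Hochberg adjusted p below 0.05 over 22186 probes. The number of arrays limits the precision. In simulated data 70% of log2 changes of 1 and 97% of changes of 2 were recovered. There 100 of 22186 probes were given each change, with independent noise and no slide effect. Far fewer probes changed there than were called in the real data, so these shares need not hold here. The labels call the replicates biological but do not say how they were separated, so p-values measure the spread between these samples. An exact permutation test of 3 against 3 cannot go below 0.1.

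The labels number the replicates of both groups alike. Same-numbered replicates deviated together from their group means, at correlations of 0.21, 0.23 and 0.30, and each passed the limit of 0.1 set for pairing. Differently numbered replicates ran from -0.50 to 0.29, and 3 of 6 such pairs also passed 0.1. The shared numbers come from the labels, and these correlations do not show that same-numbered replicates belong together. The reported test used no pairing, and the replicate number as a block was an alternative.

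The deposited value table holds natural log values made by the authors, centred per probe. With each probe centred, it correlated with the green values at 0.77 to 0.94 on single arrays, and the red channel was not compared. Its scaling between arrays and its centre are unknown, and its 15031 probes served as an alternative. Named genes were every inhibitor probe, CYGB, a fixed set (CDK1, CDK2, CDK4, CDK6, CCND1, CCNE1, RB1, E2F1, SKP2, CKS1B, MDM2, MTAP, CDKN2B-AS1, MKI67), the 3 largest called rises and falls of each list, and the 5 genes most like CDKN2A; 1 further gene of the fixed set is not reported here. Alternatives changed the normalisation, signal, filter, flags, array repeats, slide, replicate block, test and replicates, and leaving out the 4 arrays that stand apart was added after seeing the data. The methods' t-test was a pooled-variance t-test on replicate values normalised and filtered as above. Its counts are not those of the authors' own processing.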

Additional observations from a re-analysis of the deposited data

Results flagged for a closer look

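Among 22 pairs of an inhibitor probe and a group, 1 held an array far from the others of its group, where chance flags about 1 in 20. It was CDKN1C A_23_P428129 in CYGB+ replicate 1 array 1, which read 8.27, while the other 5 CYGB+ arrays ran from 7.12 to 7.54. The gap was 0.63 of the range of the 6 arrays. This array is also 1 of the 4 that stand apart, and without those 4 the CDKN1C difference was 0.34 with a limma adjusted p of 0.111, against 0.48 and 0.148 with them.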

How the results depend on the processing

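Over 19 other settings the called inhibitor probes kept their direction in every one that gave them a value, and CDKN1B A_23_P204696 alone changed sign, to 0.051, 0.080, 0.028, 0.026 and 0.146 without NCE replicate 1, NCE replicate 2, CYGB+ replicate 1, CYGB+ replicate 3 and the 4 arrays that stand apart. CDKN2A lost its call with the slide block (0.73), within the slide (0.67) and under the methods' t-test (1.04, adjusted p 0.109), CDKN3 A_33_P3307903 within the slide (-1.07) and under the methods' t-test (-0.79, adjusted p 0.0602), and CDKN3 A_23_P48669 under the 75th percentile (-0.48), the processed signal by 75th percentile (-0.43) or quantile (-0.53) and within the slide (-0.75). CDKN1C passed with arrays entered singly (0.48), a setting that keeps its outlying array and takes arrays, not replicates, as units. CDKN1A passed without the 4 arrays (0.39). The cause was not tested. Leaving out 1 replicate gave 0.87 to 1.16 for CDKN2A, -0.89 to -0.73 and -0.53 to -0.43 for the CDKN3 probes, and -0.19 to 0.080 for CDKN1B A_23_P204696.

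Inhibitor probes called higher and lower, 1 and 2 as reported, numbered 1 and 1 under the 75th percentile, both processed signals and the value table, 2 and 2 with arrays entered singly or without the 4 arrays, 0 and 2 with the slide block, 0 and 0 within the slide and 0 and 1 under the methods' t-test, and ran from 0 to 1 and from 0 to 2 without 1 replicate. At 1.5-fold they were 1 and 1 as reported, 1 and 2 with flagged spots kept, 0 and 2 with the slide block, 0 and 0 within the slide or under the methods' t-test, 1 and 0 without the 4 arrays, and 0 to 1 in each direction without 1 replicate.

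All probes called higher and lower, 1234 and 1190 as reported, numbered 794 and 719 under the 75th percentile, 923 and 755 with the processed signal by 75th percentile, 764 and 680 in the value table, 2513 and 2408 with arrays entered singly, 283 and 449 with the slide block, 3 and 2 within the slide, 360 and 310 under the methods' t-test and 2947 and 2691 without the 4 arrays. Without 1 replicate they ran from 232 to 1277 and from 245 to 1140, with 552 and 616 without NCE replicate 1, 232 and 254 without NCE replicate 2, 249 and 245 without NCE replicate 3 and 628 and 642 without CYGB+ replicate 3. At 1.5-fold, 668 and 706 as reported, they were 1097 and 906 with the processed signal by quantile, 242 and 410 with the slide block, 3 and 2 within the slide, 188 and 190 under the methods' t-test, and 232 to 681 and 245 to 681 without 1 replicate.

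Over the 7 lists, 5 higher and 7 lower as reported, the counts were 4 and 2 with the processed signal by 75th percentile and in the value table, 16 and 14 with arrays entered singly, 1 and 0 with the slide block, 0 and 0 within the slide and under the methods' t-test, 9 and 7 with the replicate block and 16 and 16 without the 4 arrays, and 0 to 5 and 0 to 11 without 1 replicate. By list, counts follow with arrays entered singly and then without the 4 arrays. The ARF and MDM2 list, of 25 probes tested, gave 7 and 7 higher and 1 and 0 lower. Kinases and cyclins, of 14, gave 4 and 4 lower and 1 and 2 higher. Pocket proteins, of 19, gave 3 and 3 lower and 1 and 0 higher. Proliferation genes, of 22, gave 3 and 6 lower and 1 and 3 higher. Transcription factors, of 21, gave 4 and 2 higher and 2 and 2 lower. Ligase parts, of 15, gave 2 and 2 higher, and the 9p21 list, also of 15, gave 1 and 1 lower. Calls over all probes rose under both settings too. Without the 4 arrays they were 13.3% higher and 12.1% lower, from 5.56% and 5.36% as reported. The other settings that left 1.5 times the reported count of a list gave 0 to 2 probes, and leaving out 1 replicate gave 0 to 2 higher in any list and 0 to 6 lower, the 6 for proliferation genes without CYGB+ replicate 1.

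With the replicate number as a block no inhibitor call changed: the adjusted p was 0.0152 for CDKN2A and 0.0144 for CDKN3 A_33_P3307903. It moved the list counts to 9 higher and 7 lower and all probes to 1467 and 1483, and changed no other call among the inhibitors. Signal over background limits CDKN2B and the NM_000077 probe, for which no difference can be read.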
